A study of Mus musculus with 6 samples.

Results

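The genes described here are 9 that encode linkers and anchors of the basement membrane, measured in wild-type and β1 integrin knockout embryonic mouse hearts. They are the nidogen genes Nid1 and Nid2, the perlecan gene Hspg2, the agrin gene Agrn, the dystroglycan gene Dag1, the nephronectin gene Npnt and the Fraser complex genes Fras1, Frem1 and Frem2. They were chosen by name, and each was read by the transcript cluster (the group of array probes that reports 1 transcript) annotated with that symbol alone. All 9 were found, each with 1 cluster, among 19933 genes with a cluster of their own in a table of 28767 clusters. The samples were 3 wild-type hearts (heart_WT) and 3 β1 integrin knockout hearts (heart_KO) of stage E12.5 (embryonic day), each on 1 Affymetrix Mouse Gene 1.0 ST array. Strain, Cre driver, the cells that lost the gene, and whether hearts were pooled are not stated in the labels, so "heart" below means 1 sample. The design text gives the aim as a search for early transcript differences before overt cardiac dysfunction.

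A basement membrane is a thin sheet of matrix on which epithelial and endothelial cells rest and which also wraps each muscle cell. Its laminin and collagen IV networks are joined by nidogens and by perlecan, and cells hold on to it through β1 integrins and through dystroglycan, which also binds agrin and perlecan. Nephronectin is a matrix ligand of the integrin made of the α8 and β1 chains, and the Fras and Frem proteins form a complex that fastens embryonic epithelia to the tissue beneath. In the developing heart such sheets lie under the endocardium and the epicardium and around cardiomyocytes.

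No difference between knockout and wild-type hearts passed the test for any of the 9 genes. Hspg2 was 1.12-fold higher and Npnt stood at 92.4% of the wild-type signal in the knockout, and these were the largest differences in each direction. By their means 6 genes were higher (Nid1, Nid2, Hspg2, Agrn, Dag1 and Frem2) and 3 were lower (Npnt, Fras1 and Frem1). With limma, which borrows the spread of all clusters to test each of them, 0 of the 9 passed a Benjamini-Hochberg adjusted p of 0.05 over all clusters, where the background was 0% of clusters called. At an unadjusted p under 0.05 the count was also 0 of 9, against 5.93% of all clusters, made up of 3.06% higher and 2.87% lower in the knockout. The smallest adjusted p among the 9 genes was 0.797 in limma.

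All values are deposited log2 signals, so a difference of 1 is a doubling. The 9 genes had means over the 6 arrays between 8.10 and 11.10, above the median of 6.67 over all clusters. A whole heart was measured, so less RNA per cell and fewer cells of a type cannot be told apart. The array medians ran from 6.65 to 6.71.

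The targeted gene was read on the same arrays. Itgb1, the β1 integrin gene, was 11.76, 11.80 and 11.78 in wild-type hearts 1 to 3 and 11.53, 11.42 and 11.65 in knockout hearts 1 to 3. Every knockout heart was below every wild-type heart, with a difference of -0.25 ± 0.09 (SE) that did not pass over all clusters (limma, adjusted p = 0.797). The probe positions are not given, so it is not known whether this cluster lies in the deleted part, and the reading does not check the labels.

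**Figure D1:**
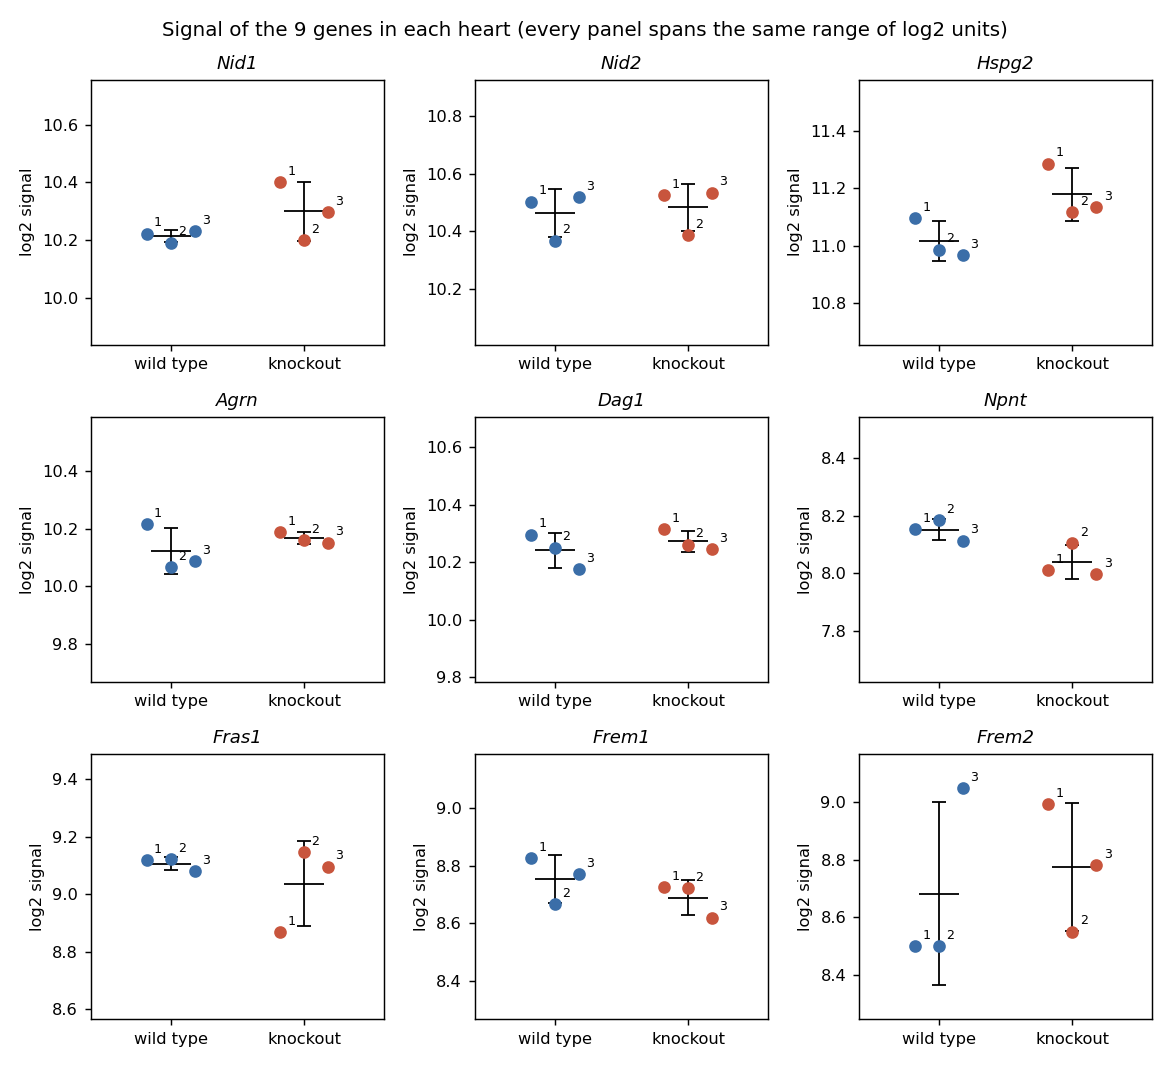
Log2 signal of the 9 genes in each of the 6 hearts, with the heart's number beside each point and the mean ± SD (n = 3) of a group as a black cross-bar. Hspg2 is the only gene of the 9 with all 3 knockout hearts above the wild-type hearts and Npnt the only gene with all 3 below, while Frem2 has the widest spread in both groups.

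Nid1 and Nid2 encode the nidogens, the rod-like proteins that bind laminin at one end and collagen IV at the other. Nid1 was 10.22, 10.19 and 10.23 in wild-type hearts 1 to 3 and 10.40, 10.20 and 10.30 in knockout hearts 1 to 3. Knockout hearts 1 and 3 were above all wild-type hearts, and knockout heart 2 lay among them. The difference was 0.08 ± 0.09 (SE), or 0.03 without knockout heart 1. Nid2 was 10.50, 10.37 and 10.52 in wild-type hearts against 10.53, 10.39 and 10.53 in knockout hearts. The groups overlapped almost wholly, with the lowest value of each group in heart 2, and the difference was 0.02 ± 0.09. The 95% confidence interval from limma left between 87.8% and 117% of the wild-type Nid2 signal, and between 92.2% and 122% for Nid1. The sign of the Nid2 difference turned when arrays were weighted by how closely they followed the fit and when any of 3 single hearts was left out.

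Hspg2 encodes perlecan, the large heparan sulfate proteoglycan that ties the laminin and collagen networks to the cell surface and holds growth factors. Its signal was 11.095, 10.987 and 10.968 in wild-type hearts 1 to 3 and 11.285, 11.117 and 11.135 in knockout hearts 1 to 3. The lowest knockout heart stood 0.022 above the highest wild-type heart, so the groups touched but did not overlap. The difference was 0.16 ± 0.09 (SE) and its 95% interval ran from -0.04 to 0.37, which spans 97.0% to 129% of the wild-type signal (limma, adjusted p = 0.797). It was larger than the difference of 73.9% of all clusters in absolute size. An exact permutation test on the 6 values gave a two-sided p of 0.1, which is the floor for groups of 3. Among 15 alternative fits the unadjusted p was under 0.05 only with limma's trended robust variance (0.044).

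Agrn encodes agrin, a heparan sulfate proteoglycan that binds laminin and α-dystroglycan and clusters acetylcholine receptors at the neuromuscular junction. It was 10.22, 10.07 and 10.09 in wild-type hearts and 10.19, 10.16 and 10.15 in knockout hearts. Wild-type heart 1 was the highest of the 6, and the knockout hearts lay between it and the other wild-type hearts. The difference of 0.04 ± 0.08 (SE) had a 95% interval of -0.15 to 0.24.

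Dag1 encodes both chains of dystroglycan, the receptor that joins laminin, agrin and perlecan outside the cell to dystrophin inside it. It was 10.30, 10.25 and 10.18 in wild-type hearts and 10.31, 10.26 and 10.25 in knockout hearts. The groups overlapped, and the values of both groups fell within 0.14 of each other. The difference was 0.03 ± 0.08 (SE), with a 95% interval between 89.9% and 116% of the wild-type signal. Dag1 stood at 0.00 without wild-type heart 3.

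Npnt encodes nephronectin, which presents an integrin-binding motif in the matrix and is best known from the outgrowth of the kidney bud. It was 8.155, 8.186 and 8.114 in wild-type hearts 1 to 3 and 8.012, 8.106 and 7.997 in knockout hearts 1 to 3. All knockout hearts were lower, with a gap of 0.0080 between the highest of them and the lowest wild-type heart. The difference was -0.11 ± 0.08 (SE), with a 95% interval of -0.30 to 0.07, or 81.3% to 105% of the wild-type signal (limma, adjusted p = 0.812). The exact two-sided permutation p was again 0.1. The Npnt difference ran from -0.15 to -0.08 in the 15 alternative fits. As its groups did not overlap, only the 3 normalizations could have turned its sign. It was -0.10 with quantile normalization, -0.08 with cyclic loess and -0.12 with centring on array medians.

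Hspg2 and Npnt were thus the genes whose groups did not overlap, 2 of 9, with 1 in each direction. Over all clusters the groups did not overlap for 12.6%, split into 6.01% with higher and 6.61% with lower knockout hearts. Both gaps were smaller than the spread of the array medians, and when every array was centred on its median 0 of the 9 genes remained free of overlap. With the quantile or cyclic loess normalization both did. Without knockout heart 2 the count was 4, with Nid1 and Nid2 added, but leaving out a heart can only keep or raise such a count. The share of all clusters without that heart is not given here, so the 4 cannot be set against the 12.6%.

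Fras1 encodes the large transmembrane protein of the Fraser complex, whose loss in embryos causes blisters beneath epithelia. It was 9.12, 9.12 and 9.08 in wild-type hearts and 8.87, 9.15 and 9.10 in knockout hearts 1 to 3. Knockout heart 1 was the lowest of the 6 and knockout heart 2 the highest, with knockout heart 3 among the wild-type hearts. The SD was 0.15 in the knockout (n = 3) and 0.02 in the wild type (n = 3). The difference of -0.07 ± 0.10 (SE) became 0.01 without knockout heart 1.

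Frem1 encodes a secreted member of the complex. It was 8.83, 8.67 and 8.77 in wild-type hearts against 8.73, 8.72 and 8.62 in knockout hearts. The groups overlapped, with the highest value in wild-type heart 1 and the lowest in knockout heart 3. The difference was -0.07 ± 0.09 (SE), with a 95% interval between 83.2% and 110% of the wild-type signal.

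Frem2 encodes a further membrane protein of the complex, and it varied most of the 9 genes. It was 8.50, 8.50 and 9.05 in wild-type hearts 1 to 3 and 8.99, 8.55 and 8.78 in knockout hearts 1 to 3. Wild-type heart 3 and knockout heart 1 were the high hearts, and wild-type hearts 1 and 2 and knockout heart 2 were the low hearts, so the high and low values did not follow the genotype. The difference of 0.09 ± 0.18 (SE) had the widest interval of the 9 genes, from 79.9% to 142% of the wild-type signal. It was 0.28 without wild-type heart 3, and 0.00 without either of the other wild-type hearts. Without knockout heart 1 it was -0.02.

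**Figure D2:**
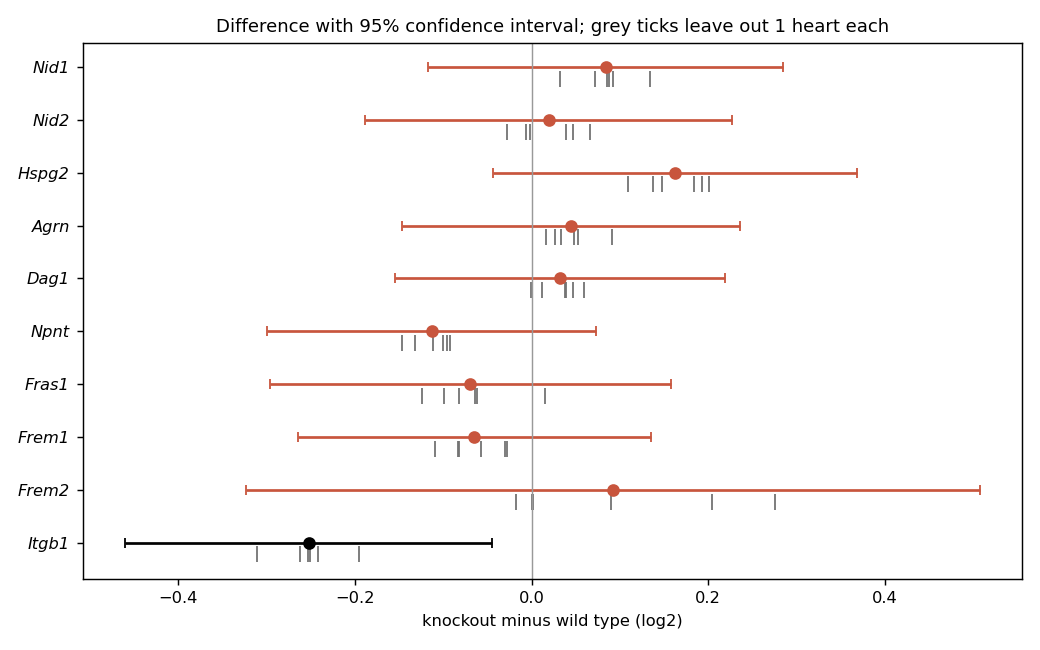
Knockout minus wild-type difference (log2) of the 9 genes and Itgb1, with limma's 95% confidence interval; each grey tick below a point is the difference with 1 heart left out. The intervals of all 9 genes hold 0, and the ticks of Nid2, Dag1, Fras1 and Frem2 lie on both sides of it.

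The 9 genes differed in how much they varied among hearts of 1 genotype. The pooled SD within groups was 0.05 for Dag1 and Npnt, 0.06 for Agrn, 0.07 for Nid1 and Frem1 and 0.08 for Nid2 and Hspg2. For these 7 genes, only 5.04% (Npnt) to 18.5% (Nid2) of clusters had a smaller SD. Fras1 had an SD of 0.11, above that of 31.4% of clusters, and Frem2 had an SD of 0.27, above that of 90.5%. The clusters of this comparison include many dimmer ones, and the part of signal level in these ranks was not tested.

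The range of Frem2 over the 6 hearts, 0.55, was the only range of the 9 genes above the 75th percentile of all genes (0.52). The genes with the most similar profile, measured by the root mean square difference between profiles centred over the 6 arrays, were BC040756 (0.046), Plppr3 (0.063) and Zmat4 (0.066), among 19932 genes searched. BC040756 was a dim cluster, between 4.06 and 4.62 in the 6 hearts. With only 6 arrays such a likeness is a description of these hearts.

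Markers of the cell types that a dissected heart can hold were read in the same samples. The mean of 10 cardiomyocyte markers was 12.57 to 12.61 in wild-type and 12.495 to 12.592 in knockout hearts, with 0 of 10 dimmer than the median cluster. The mean of 10 endothelial and endocardial markers was 9.64 to 9.73 in wild-type hearts and 9.59 to 9.61 in knockout hearts, so that all knockout hearts were lower, with 7 of 10 markers lower by their means. The hearts thus carried the markers of the labelled tissue.

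Knockout heart 1, the highest heart for Nid1, Hspg2 and Dag1 and the lowest for Fras1, stood apart in blood cell markers. Its mean over 8 of 10 erythroid markers was 10.19, against 8.77 to 9.17 in wild-type hearts and 8.90 and 8.95 in the other knockout hearts. Its mean over 6 of 8 platelet and megakaryocyte markers was 8.75, against 6.61 to 6.74 in wild-type hearts and 6.96 and 6.71 in the other knockout hearts. The part of these cells in the values of knockout heart 1 was not tested. Without this heart Hspg2 differed by 0.11 and Npnt by -0.10. Leaving out a heart cannot bring overlap to groups that had none, so the lack of overlap was not tested by it.

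For Frem2, the epithelial marker mean in wild-type hearts 1 to 3 was 5.68, 5.74 and 5.88, and in knockout hearts 1 to 3 it was 5.96, 5.81 and 5.83. The highest epithelial means were in knockout heart 1 and wild-type heart 3, which were also the high hearts of Frem2. However, 7 of the 8 epithelial markers were dimmer than the median cluster. The epicardial marker mean was 8.54 to 8.59 in wild-type hearts against 8.71, 8.55 and 8.70 in knockout hearts 1 to 3. The part of either cell type in the Frem2 values was not tested.

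**Figure D3:**
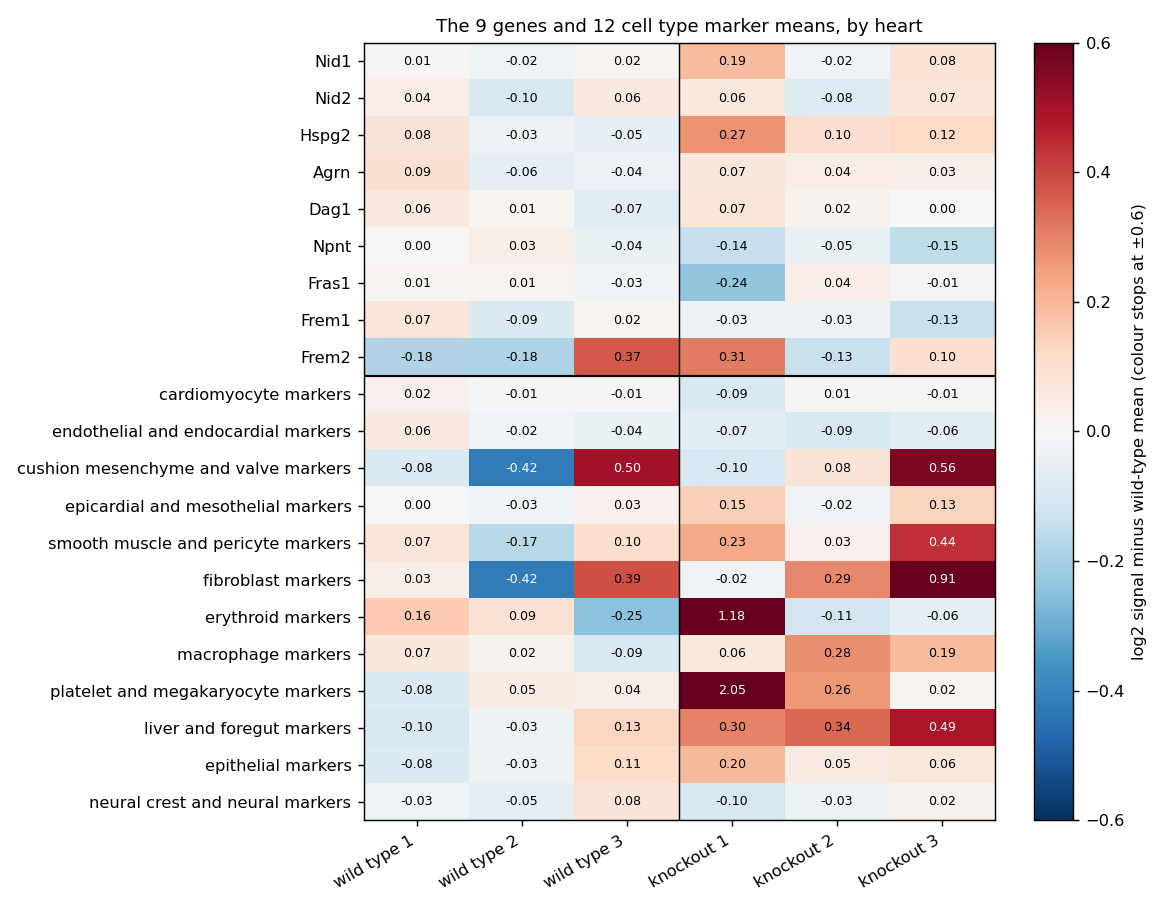
Log2 signal of the 9 genes (upper rows) and mean log2 signal of 12 marker lists (lower rows) in each heart, each minus its wild-type mean; red is higher, blue lower, and the number is printed in each cell. Hspg2 reaches 0.27 and Frem2 0.37 in single hearts, while erythroid and platelet markers reach 1.18 and 2.05 in knockout heart 1 and fibroblast markers 0.91 in knockout heart 3.

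Mesenchymal markers also varied from heart to heart. The mean of 8 fibroblast markers was 9.32, 8.87 and 9.68 in wild-type hearts 1 to 3 and 9.27, 9.58 and 10.20 in knockout hearts 1 to 3, and all 8 were higher in the knockout by their means. The mean of 10 cushion mesenchyme and valve markers was 8.73, 8.40 and 9.32 in wild-type hearts against 8.72, 8.90 and 9.38 in knockout hearts. Nid2 had its lowest value of each group in heart 2. The lowest wild-type fibroblast and cushion means were in heart 2 too, but the lowest knockout means were in heart 1. Macrophage markers, 10 in all, had means of 6.93 to 7.09 in wild-type and 7.08 to 7.30 in knockout hearts, and smooth muscle and pericyte markers of 8.55 to 8.82 and 8.75 to 9.16. The 10 liver and foregut markers had means of 5.43 to 5.66 in wild-type and 5.83 to 6.02 in knockout hearts, with all knockout hearts higher, and all 10 were dimmer than the median cluster. The 5 of 8 neural crest and neural markers measured, also all dimmer than it, had means of 5.86 to 5.995 and 5.82 to 5.94. The part of these cells in the values of the 9 genes was not tested.

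The other genes of the basement membrane and of its receptors were read as 10 lists, with 114 of 123 genes measured. None passed limma's test over all clusters (smallest adjusted p = 0.797). An unadjusted limma p under 0.05 was found for 3 of 114, a smaller share than the 5.93% of all clusters. They were Vwa1, Musk and the targeted gene Itgb1. The groups did not overlap for 6 of 114 genes (5.26%), against 12.6% of all clusters. They were Vwa1, Itgb5, Sgce and Musk above and Itgb1 and Extl1 below the wild type. The gaps of Sgce (0.022) and Musk (0.012) were smaller than the spread of the array medians, as were those of Hspg2 and Npnt. The median difference of the 114 genes was 0.02, that of the 9 linker and Fraser genes 0.03 and that of all clusters -0.01.

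The structural networks that the linkers join had small differences. Of 10 laminin chain genes measured 7 were higher and 3 lower by their means, with a median of 0.06. Those with the lowest p were Lamb1 (0.16 ± 0.10, SE), Lama5 (0.13 ± 0.12) and Lamc1 (0.08 ± 0.09), which stood at 0.07, 0.05 and 0.05 without knockout heart 1. Without wild-type heart 3 Lama5 and Lamc1 both stood at 0.04. Of 8 genes for collagen IV, XV and XVIII chains 5 were higher and 3 lower, with a median of 0.05. Col4a4 was higher by 0.18 ± 0.11, and Col4a2 and Col4a1, the chains of the most widespread collagen IV, by 0.11 ± 0.10 and 0.09 ± 0.12. Without knockout heart 1 Col4a2 stood at 0.02 and Col4a1 at -0.03, and with each heart left out in turn Col4a4 ran from 0.095 to 0.27. In both lists 0 genes passed the test and 0 were free of overlap.

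Among 15 other basement membrane proteins and enzymes 11 were higher and 4 lower, with a median of 0.07. Vwa1, which encodes WARP, a matrix protein that binds perlecan, was 6.42, 6.10 and 6.23 in wild-type hearts 1 to 3 and 6.94, 6.64 and 6.55 in knockout hearts 1 to 3. All 3 knockout hearts were above the wild-type hearts, on a signal dimmer than the median cluster. The difference of 0.46 ± 0.13 (SE) had the lowest p of the 114 genes and did not pass (limma, adjusted p = 0.797). It was 0.34 without knockout heart 1. The collagen prolyl hydroxylase gene P3h2 differed by 0.23 ± 0.16 and the netrin gene Ntn4, whose product binds laminin, by 0.36 ± 0.26. P3h2 stood at 0.05 without knockout heart 1, and Ntn4 at 0.59 without it and at 0.12 without knockout heart 3.

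The genes that act with the Fraser complex were 4 higher and 2 lower of 6, with a median of 0.06. Crim1, a transmembrane protein reported to associate with the complex, was 8.67, 8.42 and 8.47 in wild-type hearts against 9.02, 8.66 and 8.65 in knockout hearts. Wild-type heart 1 lay above knockout hearts 2 and 3, and the difference of 0.26 ± 0.13 (SE) was 0.14 without knockout heart 1. Grip1, the scaffold that carries Fras1 and Frem2 to the cell surface, differed by 0.12 ± 0.11. Vwa2, a matrix protein of the same basement membrane zone, differed by 0.07 ± 0.13. Without knockout heart 1 Grip1 stood at 0.04 and Vwa2 at -0.04.

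Of 13 integrin chains that bind these matrix proteins 9 were higher and 4 lower, with a median of 0.10. The targeted gene Itgb1 was among the 4 lower chains. Itga8, the partner chain of β1 integrin for nephronectin, differed by 0.14, but by 0.00 without wild-type heart 2, 0.02 without knockout heart 3 and 0.28 without knockout heart 1. Itgav, the αv chain, was 9.41, 9.33 and 9.46 in wild-type hearts against 9.79, 9.43 and 9.74 in knockout hearts, with knockout heart 2 inside the wild-type range, a difference of 0.26 ± 0.11 (SE). Itgb5, a β chain that pairs with αv, was 10.45, 10.34 and 10.42 in wild-type hearts against 10.59, 10.57 and 10.52 in knockout hearts, with no overlap and a difference of 0.15 ± 0.08. Itgb3, the β chain of the platelet integrin, differed by 0.63, and by 0.08 without knockout heart 1. None of these passed the test.

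On the dystroglycan side, 6 genes of the dystrophin-glycoprotein complex were higher and 5 lower of 11 measured, with a median of 0.00. The ε-sarcoglycan gene Sgce was 8.76, 8.72 and 8.72 in wild-type hearts against 9.04, 8.78 and 9.01 in knockout hearts, without overlap, and differed by 0.21 ± 0.10 (SE). The α-sarcoglycan gene Sgca stood at -0.24 ± 0.14 and the sarcospan gene Sspn at -0.15 ± 0.10. With each heart left out in turn Sgca ran from -0.37 to -0.13 and Sspn from -0.25 to -0.09, lowest without wild-type heart 3 and highest without wild-type heart 1. Of 12 enzymes that build the laminin-binding glycan of dystroglycan 4 were higher and 8 lower, with a median of -0.07. Their lowest p belonged to the glycosyltransferase genes B4gat1 (-0.19 ± 0.10) and Pomgnt1 (-0.25 ± 0.14) and to Dpm2 (-0.17 ± 0.12), a subunit of the enzyme that supplies mannose. Pomgnt1 stood at -0.10 and Dpm2 at -0.07 without knockout heart 1.

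For agrin, 3 of 5 receptor and synaptic partner genes were higher and 2 lower, with a median of 0.00. Musk, the kinase through which agrin acts at the synapse, was 4.97, 5.06 and 4.88 in wild-type hearts against 5.20, 5.07 and 5.38 in knockout hearts. The groups did not overlap, on a signal dimmer than the median cluster, and the difference was 0.25 ± 0.11 (SE). The agrin receptor gene Lrp4 stood at 0.00, and the Musk partners Dok7 and Rapsn at -0.12 ± 0.11 and -0.12 ± 0.13. With each heart left out in turn Dok7 ran from -0.21 to -0.05, Rapsn from -0.23 to -0.03 and Lrp4 from -0.03 to 0.035, and Dok7 stood at 0.01 when arrays were weighted.

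The enzymes that make and edit heparan sulfate, the sugar chain of perlecan and agrin, were 11 higher and 13 lower of 24, with a median of -0.05. Extl1, an exostosin-like gene, was 7.139, 7.204 and 7.155 in wild-type hearts against 6.99, 7.03 and 6.95 in knockout hearts, with no overlap and a difference of -0.175 ± 0.08 (SE). The linker enzyme gene B4galt7 stood at -0.14 ± 0.08 and the sulfotransferase gene Hs6st1 at -0.11 ± 0.08. Of 10 genes for other heparan sulfate proteoglycans 6 were higher and 4 lower, with a median of 0.02. The syndecan gene Sdc4 differed by 0.35 ± 0.20 and the glypican genes Gpc6 by 0.46 ± 0.32 and Gpc2 by -0.15 ± 0.12. Sdc4 stood at 0.10 without knockout heart 1 and Gpc6 at 0.135 without knockout heart 3. With each heart left out in turn, Gpc6 ran up to 0.72 and Gpc2 ran from -0.20 to -0.04.

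**Figure D4:**
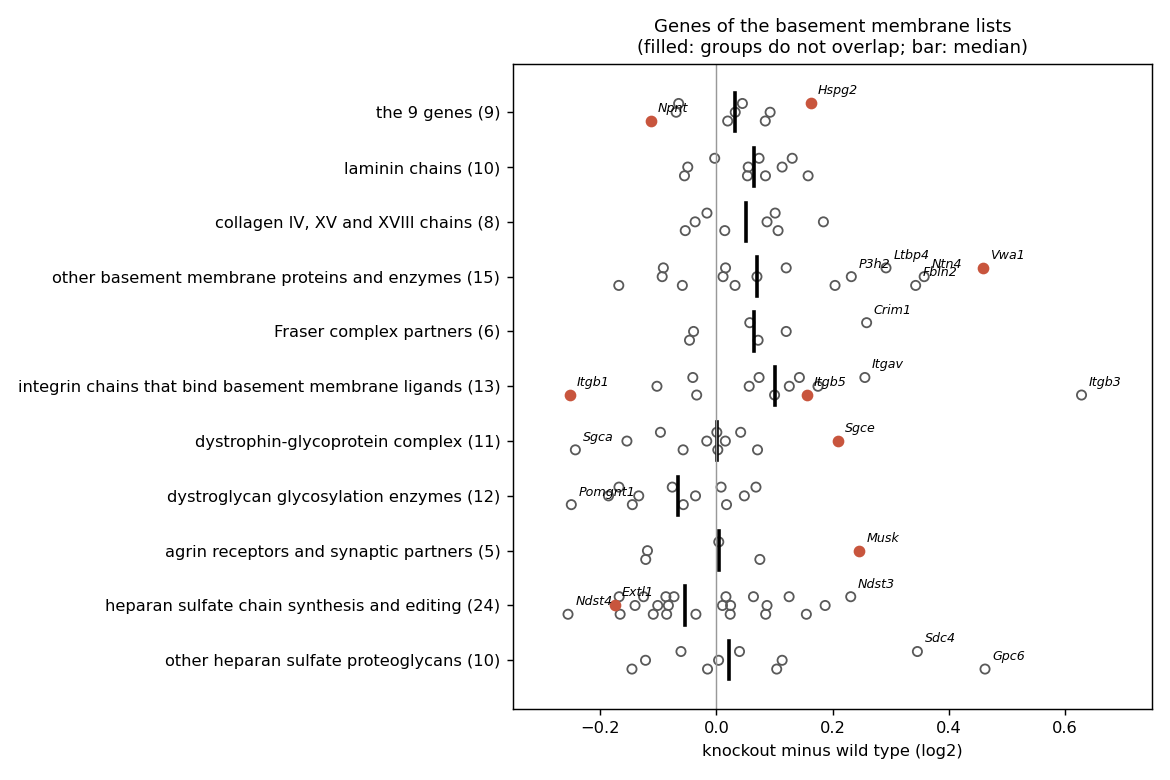
Knockout minus wild-type difference (log2) of each gene of the 9 linker and Fraser genes and of the 10 lists, with the number of genes measured in brackets; filled points are genes whose groups do not overlap, and a bar marks each list's median. The medians lie between -0.07 and 0.10, and Vwa1 and Itgb3 reach 0.46 and 0.63.

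Over the 15 alternative fits the median of the 9 genes ran from 0.00 to 0.06, that of the laminin chains from 0.03 to 0.10 and that of the glycosylation enzymes from -0.11 to -0.02. The medians of the collagen, dystrophin complex, agrin partner and heparan sulfate synthesis lists took both signs.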

How the data were processed

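The deposited values are log2 signals per transcript cluster, made by the authors with RMA (background correction, a common distribution for all arrays, and a summary over probes) per the submitters' processing notes. Its version, the build and any filter were not given in the sources used here. RMA compresses differences of dim clusters. Total RNA was taken with Trizol and biotin-labelled, per the labels. Per the design text the hearts are biological replicates; whether any were pooled is unstated, so p-values cover only their spread.

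Of 28767 clusters 21776 had 1 symbol in the platform annotation, updated by Entrez identifier for 21686. The brightest cluster stands for a gene. Knockout was compared with wild type over all clusters with limma (version 3.58.1, R 4.3.3; lmFit and eBayes, no covariate, no filter), two-sided, with Benjamini-Hochberg adjustment. On simulated data the fit called 37 of 67 clusters changed 1.5-fold, 53 of 67 changed 2-fold and 62 of 66 changed 3-fold. There were 10 false calls in all, and changes below 1.5-fold were not simulated.

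The 9 genes, the lists and the tests were chosen with earlier results of these data known. Named beside the 9 genes and Itgb1 are, per list, the 3 genes of lowest p, and for a gene of wide range the 3 most similar profiles. Itga8, Itgb3 and Lrp4 were named after their values were seen. Alternatives were leaving out each heart, a replicate block, array weights, a trended robust variance, 3 normalizations, the mean of a gene's clusters, a single cluster per gene and dropping dim clusters. The number of arrays limits the precision.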

Additional observations from a re-analysis of the deposited data

How the results depend on the processing

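Under all 15 alternatives 0 of the 9 genes and 0 of the listed basement membrane genes passed limma's adjusted p of 0.05. Nid1, Hspg2, Agrn, Npnt, Frem1 and Itgb1 kept their sign. For Hspg2, Npnt and Itgb1, whose groups did not overlap, only the 3 normalizations could have turned it. The trended variance, the replicate block and the choices of clusters left the differences of all these genes unchanged. The lowest adjusted p of any of the 9 genes was 0.528 (Hspg2, array weights). With array weights Nid2 stood at -0.026 and Fras1 at 0.0033. The weights were 0.35, 2.98 and 0.54 for knockout hearts 1 to 3, so knockout heart 2 counted most in the weighted knockout mean. With 1 heart left out in turn, Nid2 ran from -0.028 to 0.067, Dag1 from -0.00017 to 0.060, Fras1 from -0.12 to 0.015 and Frem2 from -0.017 to 0.28, and the cause was not tested. The count of genes without overlap was 0 with centring on array medians and ran from 2 to 4 with a heart left out. Leaving out a heart can only keep or raise it, and the shares of all clusters in these settings are not given here. The count of clusters passing ran from 0 to 1, the latter without knockout heart 1. With the replicate block it was 0, with 1508 clusters at an unadjusted p under 0.05 in place of 1705. Weighting the arrays gave 3650 such clusters and leaving out knockout heart 3 gave 2714, while leaving out wild-type heart 2 gave 1076. Same-numbered hearts deviated from their group means with correlations of -0.042, -0.026 and -0.056, none of them the best match of either heart. The labels of such hearts share only a number, and correlations from 3 hearts a group cannot show whether they were handled together. Of the 3 normalizations, cyclic loess moved the median difference of all clusters most, by 0.014, where the Nid2 difference was 0.019. With 3 hearts a group, the 95% interval of the 9 genes reached from 0.19 (Npnt) to 0.42 (Frem2) to either side of the difference.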
